A study of Mus musculus with 12 samples.

Results

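The genes described are 9 components and receptors of the complement system, *C1qa*, *C1qb*, *C1qc*, *C3*, *C4b*, *Cfb*, *Cfp*, *C3ar1* and *C5ar1*. They were taken by gene symbol from a count table of 37775 genes, and all 9 were found. Each is given in 4 fractions of monocyte-macrophage lineage cells (Mo-Macs), with 3 libraries per fraction and 12 in all. The cells came from the ear skin of wild-type (WT) BALB/c mice with IgE-CAI, a model of IgE-dependent skin allergy. All mice had received 300 μg of anti-TNP IgE intravenously and then 10 μg of TNP-OVA in the ear skin, and the lesions were taken on day 5. The fractions were sorted by Ly6C and PD-L2: classical monocytes as Ly6ChiPD-L2lo, early classical monocyte-derived macrophages (early CMDMs) as Ly6ChiPD-L2hi, late CMDMs as Ly6CloPD-L2hi, and resident-like macrophages as Ly6CloPD-L2lo. No fraction of unchallenged skin, no other genotype and no other day was compared here. The study used male mice aged 7 to 12 weeks and gives no narrower age for these samples. The study gates Mo-Macs by CD45, CD11b and F4/80 without Ly6G and Siglec-F. Nothing in the labels says that the libraries of a fraction came from separate mice, so p-values measure only the spread between these libraries, which may be technical.

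Complement is a cascade of plasma and tissue proteins that tags microbes, immune complexes and dying cells. C1q is built from the A, B and C chains encoded by *C1qa*, *C1qb* and *C1qc*, and starts the classical pathway, in which C4 and C2 form an enzyme that cleaves C3. The alternative pathway amplifies C3 cleavage through factor B and is stabilized by properdin, and the small fragments C3a and C5a signal to myeloid cells through their receptors. Much plasma complement is made in the liver, but C1q and properdin come largely from myeloid cells, and tissue macrophages are a known source of C1q.

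The C1q genes lie side by side on chromosome 4 of GRCm38, all on the minus strand. *C1qb* spans chr4:136880129-136886187, *C1qc* spans chr4:136889804-136893065 and *C1qa* spans chr4:136895917-136898803, so that 3616 and 2851 bases separate the neighbours. Sequences upstream of *C1qb* and *C1qc* are shown because these genes moved together, and that of *C3* because it moved the other way. They come from RefSeq on GRCm38.p6, whose table matched 6 of the 9 genes (*C1qb*, *C1qc*, *C3*, *C3ar1*, *C5ar1* and *Cfp*). Each is written 5′ to 3′ on the gene's own strand. Capitals mark AGGAAGT read from the opposite strand, the core of sites for ETS family factors such as PU.1, in *C1qb* and *C1qc*. In *C3* they mark TTGCNNAA, the core letters of sites for C/EBP factors. The windows are chr4:136886201-136886450 for *C1qb*, chr4:136893066-136893164 for *C1qc*, where the bases nearer to the RefSeq start overlap annotated exons and are left out, and chr17:57228137-57228386 for *C3*.
C1qb: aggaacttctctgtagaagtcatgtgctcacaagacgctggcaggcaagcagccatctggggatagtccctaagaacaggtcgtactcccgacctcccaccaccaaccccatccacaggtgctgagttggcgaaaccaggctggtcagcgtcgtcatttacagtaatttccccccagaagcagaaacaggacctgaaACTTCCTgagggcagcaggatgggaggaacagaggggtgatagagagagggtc
C1qc: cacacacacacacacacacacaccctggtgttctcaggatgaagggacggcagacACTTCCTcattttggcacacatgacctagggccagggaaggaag
C3: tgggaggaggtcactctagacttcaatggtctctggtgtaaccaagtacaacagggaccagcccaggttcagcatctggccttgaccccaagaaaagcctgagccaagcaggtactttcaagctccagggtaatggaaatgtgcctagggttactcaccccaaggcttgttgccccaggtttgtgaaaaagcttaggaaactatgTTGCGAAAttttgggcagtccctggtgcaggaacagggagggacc

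The first base of AGGAAGT lay 53 bases before the RefSeq start in *C1qb* and 195 bases before it in *C1qc*. *C5ar1* was the third of the matched genes to hold it, with matches 190 and 72 bases before the start. On both strands, AGGAAGT was found in the 250 upstream bases of 7.69% of all 32851 promoters of the table and of 3 of the 6 matched genes. TTGCNNAA was found in 9.56% of all promoters, and in *C3* alone among the 6, starting 45 bases before the start. The response element of interferon regulatory factors was found in 2.98% of promoters. A palindromic STAT element, searched with a single spacing between its arms, was found in 5.85%. Neither of these elements, as searched, was in the window of any of the 6 genes. Other spacings of the STAT element were not searched. The outer letters of NF-κB sites, with any bases between them, were in 45.8% of promoters and in 5 of the 6. TATAAA was in 12.4% of promoters and in *C3ar1* alone. A match on one strand can overlap a match on the other, as it did for the NF-κB letters, and a match is a description of letters and not of bound factors.

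Total counts were 12537178 to 19844113 per library, at which 3 counts, the limit that a count of 0 allows, corresponded to 0.161 to 0.239 CPM, the unit used for levels below (counts scaled to the library size after TMM normalization). This limit covers counting error only, because the reads carry no molecular identifiers. The 9 genes were all above it in all 12 libraries and all passed the expression filter, as did 22118 genes of the table. The 10 Mo-Mac markers (*Ptprc*, *Itgam*, *Csf1r*, *Lyz2*, *Fcgr1*, *Adgre1*, *Mertk*, *Ly6c2*, *Ccr2* and *Pdcd1lg2*) were detected in each fraction. Their summed levels were 7433 to 9418 CPM in classical monocytes and 2245 to 3109 in early CMDMs. They were 5154 to 6147 CPM in late CMDMs and 8923 to 9951 in the resident-like fraction. *Lyz2*, at 1761 to 7298 CPM on average, made up most of each sum. The study describes its single-cell resident-like cluster as high in *Adgre1* and low in *Ccr2*. Here the resident-like fraction averaged 182 CPM of *Adgre1* against 84.6 in classical monocytes, but 438 CPM of *Ccr2* against 390. *Mertk* averaged 12.3 CPM there against 27.2 in late CMDMs. Early CMDM libraries also held 17068 to 27241 CPM of 6 keratinocyte markers, against 1868 to 4044 in classical monocytes and 2294 to 3641 in the other two fractions. The 6 fibroblast markers summed to 3249 to 5579 CPM in classical monocytes and 2983 to 4198 CPM in early CMDMs, but to 477 to 498 CPM in late CMDMs and 275 to 357 CPM in resident-like macrophages. No keratinocyte or fibroblast marker was at 0 in any fraction, although a CD45+ gate removes both cell types. The part of these cells in the complement values was not tested. T cell markers summed to 116 to 162 CPM in classical monocytes and to 18.4 to 38.0 CPM elsewhere, and dendritic and Langerhans cell markers to 931 to 1237 CPM in resident-like macrophages and 156 to 268 CPM elsewhere. The sum of 6 blood and lymphatic endothelial markers (*Pecam1*, *Cdh5*, *Kdr*, *Lyve1*, *Prox1* and *Flt4*) was highest in late CMDMs, at 177 to 239 CPM. It was 73.7 to 81.0 CPM in classical monocytes, 142 to 155 in early CMDMs and 57.0 to 84.5 in the resident-like fraction. Singly, *Cdh5* averaged highest in early CMDMs and *Kdr* in classical monocytes. None of the 6 markers was at 0 in all libraries of a fraction. From early to late CMDMs *Lyve1*, *Prox1* and *Flt4*, which mark lymphatic endothelium, rose by 1.89 to 2.04 on the log2 scale, whereas *Cdh5*, the cadherin of endothelial junctions, was lower by a log2 difference of -0.68 (edgeR adjusted p at most 3.35e-05 for the former and 0.0137 for the latter). All 6 were lower in resident-like macrophages than in late CMDMs. *Lyve1* and *Pecam1* are also known from macrophages and monocytes.

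The C1q chains rose in steps from classical monocytes to late CMDMs. *C1qa* was at 143, 126 and 220 CPM in the 3 classical monocyte libraries and at 284, 251 and 403 CPM in those of early CMDMs. It was at 1088, 1059 and 946 CPM in late CMDMs, against 1134, 1092 and 1039 CPM in resident-like macrophages. The classical monocyte, early CMDM and late CMDM libraries did not overlap, whereas those of late CMDMs and resident-like macrophages did. The log2 fold change of *C1qa* was 0.94 ± 0.19 (SE) from classical monocytes to early CMDMs and 1.72 ± 0.19 from early to late CMDMs (adjusted p = 0.000932 and 8.28e-06 from the quasi-likelihood test of edgeR, after Benjamini-Hochberg adjustment over all tested genes). Late CMDMs held 6.32-fold more *C1qa* than classical monocytes. Between late CMDMs and resident-like macrophages the log2 difference was 0.08 ± 0.19 (edgeR adjusted p = 0.799). In bulk RNA of a sorted fraction, fewer expressing cells and less RNA per cell cannot be told apart.

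*C1qb* followed the same course, with 105, 96.5 and 165 CPM in the classical monocyte libraries and 244, 196 and 343 CPM in those of early CMDMs. It reached 792, 743 and 711 CPM in late CMDMs, against 795, 771 and 684 CPM in resident-like macrophages. *C1qc* was at 95.5, 85.1 and 139 CPM in classical monocytes, 204, 164 and 293 in early CMDMs, 747, 722 and 702 in late CMDMs and 628, 585 and 577 in the resident-like fraction. For both genes the classical monocyte and early CMDM libraries stood below all libraries of late CMDMs and resident-like macrophages. From classical monocytes to early CMDMs, *C1qb* and *C1qc* rose by 1.09 ± 0.20 and 1.05 ± 0.19 on the log2 scale (edgeR adjusted p = 0.000445 and 0.000396). From early to late CMDMs they rose by a further 1.52 ± 0.20 and 1.72 ± 0.19 (edgeR adjusted p = 4.52e-05 and 8.81e-06). Every *C1qc* library of resident-like macrophages was lower than every one of late CMDMs, yet the log2 difference of -0.28 ± 0.19 did not pass the test with all 12 libraries (edgeR adjusted p = 0.309). It did pass when these 6 libraries were fitted alone (edgeR adjusted p = 0.0199).

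**Figure D1:**
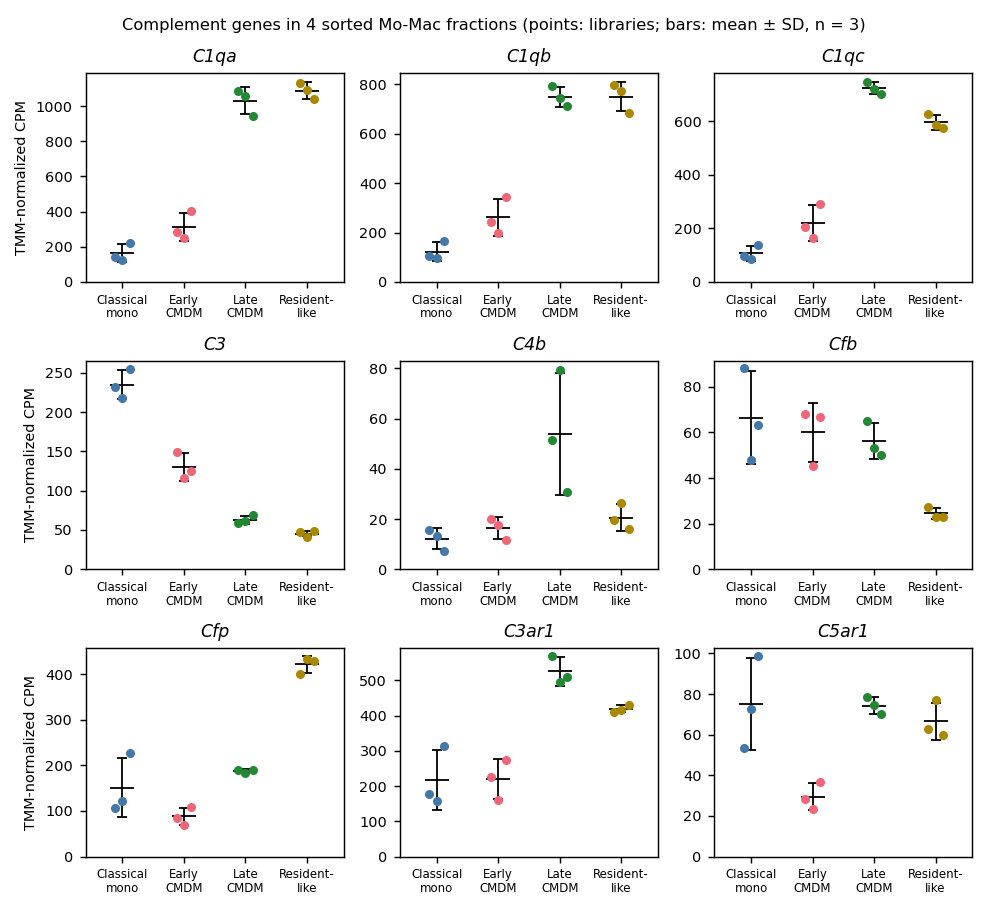
TMM-normalized CPM (linear axis from 0, a separate scale per gene) of the 9 complement genes in 4 fractions, with 1 point per library and horizontal bars for the mean and whiskers for the SD of 3 libraries. The *C1q* genes climb from classical monocytes to late CMDMs, *C3* descends from 235 to 45.5 CPM on average, *C4b* is highest and most spread in late CMDMs, and *Cfp* is highest in resident-like macrophages.

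The chains kept close to a fixed proportion while their levels changed several-fold. Within a library *C1qa* had 1.17 to 1.52 reads per read of *C1qb*, with means of 1.33 ± 0.03 (SD, n = 3) in classical monocytes, 1.21 ± 0.06 in early CMDMs, 1.38 ± 0.05 in late CMDMs and 1.45 ± 0.06 in the resident-like fraction. *C1qc* had 0.943 to 0.987 reads per read of *C1qb* in late CMDMs, above every library of the other fractions. The ratio was 0.842 to 0.906 in classical monocytes and 0.759 to 0.843 in resident-like macrophages. The chains share no exact 31-base stretch of their transcripts. Local mapping that allows mismatches could still place a read on the wrong chain, which was not tested. Across the 12 libraries the Pearson correlation of log2 CPM between chains was 0.992 to 0.997, which is a description of libraries that share fractions and depth. The summed C1q level was 392 ± 116 CPM in classical monocytes, 794 ± 220 in early CMDMs, 2503 ± 135 in late CMDMs and 2435 ± 129 in the resident-like fraction. It made up 32.7 to 35.2% of the summed CPM of the 9 genes in classical monocytes, 55.9 to 62.5% in early CMDMs, 71.9 to 72.7% in late CMDMs and 69.6 to 72.5% in the resident-like fraction.

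Per kilobase of transcript, *C1qa* ranked first and *C1qb* second among the 9 genes in every fraction, and *C4b* ranked last. Dividing by length makes levels of different genes comparable only if reads cover whole transcripts, which was not checked. By CPM in classical monocytes, *C3* at rank 603 and *C3ar1* at rank 661 of all genes stood above *C1qa*. In late CMDMs *C1qa* reached 991 ± 72.3 CPM per kb (SD, n = 3) and *C4b* 10.0 ± 4.54 CPM per kb. *C3* was at 45.8 ± 3.65 CPM per kb in classical monocytes, below *C3ar1* at 50.4 ± 19.6, with which it overlapped, and above *C5ar1* at 29.6 ± 8.98, with which it did not. In resident-like macrophages *C3* at 8.85 ± 0.73 and *Cfb* at 8.88 ± 0.93 CPM per kb did not differ beyond their spread. By CPM, *C1qa* ranked 905 among the 37775 genes in classical monocytes, 378 in early CMDMs, 87 in late CMDMs and 93 in the resident-like fraction.

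*C3*, whose product is the protein on which the pathways converge, ran opposite to C1q. It lies at chr17:57203970-57228136 on the minus strand. It was at 232, 218 and 255 CPM in classical monocytes, at 150, 116 and 125 in early CMDMs, at 59.0, 61.8 and 68.8 in late CMDMs and at 47.1, 41.2 and 48.1 in the resident-like fraction. No library of a fraction overlapped with a library of another. *C3* fell by 0.85 ± 0.11 on the log2 scale from classical monocytes to early CMDMs (edgeR adjusted p = 1.07e-05). It fell by 1.04 ± 0.11 from early to late CMDMs and differed by -0.48 ± 0.11 between resident-like macrophages and late CMDMs (edgeR adjusted p = 3.68e-06 and 0.00516). Classical monocytes held 5.17-fold more *C3* than resident-like macrophages. All 6 fibroblast markers also fell from early to late CMDMs. From classical monocytes to early CMDMs, where *C3* fell, their log2 differences were -0.45 to -0.14 (edgeR adjusted p = 0.0918 to 0.536). Fibroblasts are a known source of C3, and their part in these values was not tested.

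*C4b*, the classical pathway component cleaved by C1s, was low and variable. It was at 15.7, 13.3 and 7.46 CPM in classical monocytes, 19.9, 17.6 and 11.8 in early CMDMs, 51.4, 79.6 and 30.9 in late CMDMs and 19.5, 26.4 and 15.9 in the resident-like fraction. All late CMDM libraries stood above all others, and they differed among themselves by more than those of any other fraction. As a sum the endothelial markers were highest in the same fraction, but *Cdh5* averaged 12.3 CPM there against 19.7 in early CMDMs. *Kdr* averaged 9.28 CPM there against 11.8 in classical monocytes, and *Pecam1* 105 against 102 in early CMDMs. *Lyve1*, *Prox1* and *Flt4* were highest there, and *Lyve1* was at 58.6, 77.6 and 36.4 CPM in these libraries in the same order. The part of endothelial cells in the *C4b* values was not tested. The log2 difference was 1.72 ± 0.36 from early to late CMDMs and -1.39 ± 0.35 from late CMDMs to resident-like macrophages (edgeR adjusted p = 0.00284 and 0.011). The latter did not pass with the 6 libraries fitted alone (edgeR adjusted p = 0.0782). *C4b* lies at chr17:34728380-34743882, and 48.3% of the 31-base stretches of its transcripts also occur in *C4a*, 65209 bases away, so its reads are uncertain between the pair. *C4a* was lower, at 24.3 ± 10.5 CPM in late CMDMs and 6.80 to 9.48 CPM on average elsewhere, with 0.356 to 0.739 reads per read of *C4b* in a library. The number of *C3* reads per *C4b* read was 21.8 ± 10.8 (SD, n = 3) in classical monocytes, 8.24 ± 2.15 in early CMDMs, 1.38 ± 0.75 in late CMDMs and 2.33 ± 0.73 in the resident-like fraction.

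The alternative pathway genes *Cfb* and *Cfp* differed in opposite directions in resident-like macrophages. *Cfb*, the factor B that supplies the protease of the C3 convertase, was at 88.2, 48.1 and 63.2 CPM in classical monocytes, 68.2, 45.1 and 66.7 in early CMDMs and 65.1, 53.2 and 50.2 in late CMDMs. In resident-like macrophages it was at 27.4, 22.9 and 23.0 CPM, below every library of the other fractions. The first 3 fractions overlapped, and their log2 differences of -0.24 to -0.10 had SEs of 0.20 (edgeR adjusted p = 0.377 to 0.76). *Cfb* was lower in resident-like macrophages than in late CMDMs by a log2 difference of -1.20 ± 0.21 (edgeR adjusted p = 0.000571). It lies at chr17:34856374-34862518, and 2246 exonic bases, or 79.5% of its exons, are shared with *Gm20547*, a locus that joins *C2* and *Cfb*. Reads from the pair are therefore uncertain. *Gm20547* averaged 22.9, 19.9, 17.5 and 7.78 CPM in the fractions in the same order.

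*Cfp*, properdin, was at 106, 121 and 226 CPM in classical monocytes, 85.2, 70.3 and 109 in early CMDMs, 190, 184 and 190 in late CMDMs and 401, 434 and 430 in the resident-like fraction. Early CMDMs overlapped with classical monocytes, whose replicate 3 stood above the other two, and resident-like macrophages were above all other libraries. The gene lies at chrX:20925454-20931555. *Cfp* was 2.24-fold higher in resident-like macrophages than in late CMDMs (log2 difference 1.17 ± 0.23, edgeR adjusted p = 0.00183) and 2.13-fold higher in late than in early CMDMs (1.09 ± 0.23, edgeR adjusted p = 0.00241). The log2 difference between early CMDMs and classical monocytes was -0.78 ± 0.23 (edgeR adjusted p = 0.0135). Without classical monocyte replicate 3 this was -0.36 (edgeR adjusted p = 0.051), and without early CMDM replicate 2 it was -0.63 (edgeR adjusted p = 0.0716). The difference between late CMDMs and classical monocytes, 0.31 ± 0.23 with all libraries (edgeR adjusted p = 0.317), became 0.73 without classical monocyte replicate 3 (edgeR adjusted p = 0.000777).

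The receptors of the anaphylatoxins, small cleavage fragments that activate myeloid cells, were not parallel. *C3ar1*, the C3a receptor, was at 178, 159 and 314 CPM in classical monocytes and 225, 161 and 274 CPM in early CMDMs. It was at 570, 494 and 511 CPM in late CMDMs and 411, 417 and 430 CPM in resident-like macrophages. Classical monocytes and early CMDMs overlapped, and every library of the other fractions was above both. *C3ar1* rose by 1.25 ± 0.23 on the log2 scale from early to late CMDMs (edgeR adjusted p = 0.000737), and differed by 0.02 ± 0.22 between early CMDMs and classical monocytes (edgeR adjusted p = 0.95). The difference of -0.32 ± 0.22 between resident-like macrophages and late CMDMs did not pass with all 12 libraries (edgeR adjusted p = 0.316), although the libraries did not overlap, and passed with the 6 libraries alone (edgeR adjusted p = 0.00895). The gene lies at chr6:122847138-122856161.

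*C5ar1*, the receptor of C5a, was lowest in early CMDMs. It was at 53.5, 72.8 and 99.0 CPM in classical monocytes, 28.3, 23.4 and 36.8 in early CMDMs, 78.4, 74.5 and 70.0 in late CMDMs and 62.6, 77.2 and 60.0 in the resident-like fraction. Early CMDM libraries stood below all others, and the other fractions overlapped. *C5ar1* fell by 1.35 ± 0.20 on the log2 scale from classical monocytes to early CMDMs (edgeR adjusted p = 6.35e-05) and was 1.33 ± 0.20 higher on that scale in late CMDMs (edgeR adjusted p = 0.000137). The number of *C3ar1* reads per *C5ar1* read was 2.19 to 3.32 in classical monocytes and 5.40 to 7.95 in the other fractions, with no overlap. This ratio needs no scaling between libraries. *C5ar1* lies at chr7:16246743-16259540.

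**Figure D2:**
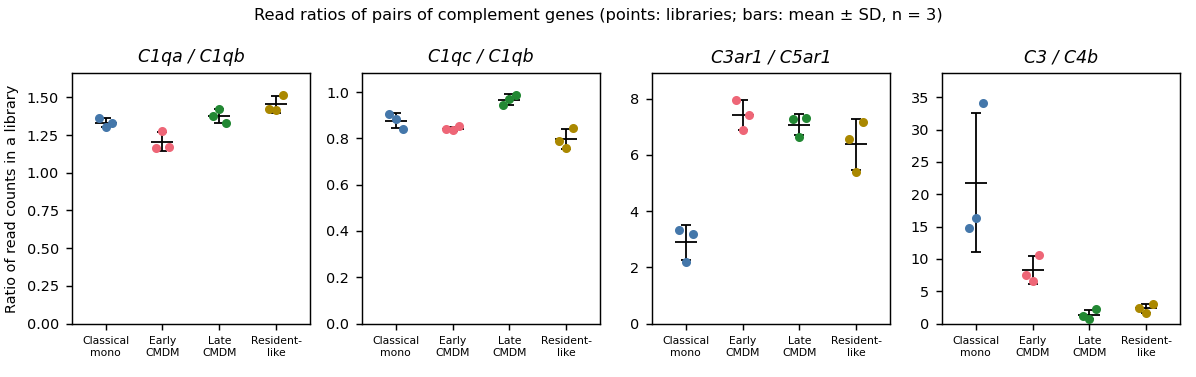
Ratios of read counts of gene pairs within each library (linear axes from 0), with 1 point per library and bars for the mean ± SD of 3 libraries. *C1qa* and *C1qc* stay near a constant ratio to *C1qb*, *C3ar1* reads per *C5ar1* read step up after classical monocytes from a mean of 2.89 to 7.42, and *C3* reads per *C4b* read fall to 1.38 in late CMDMs.

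Taking the genes as a list, 6 of 9 passed the test between early CMDMs and classical monocytes, 3 higher and 3 lower in early CMDMs, where 44.9% of all tested genes passed (24.2% higher, 20.6% lower). The step from early to late CMDMs had 7 higher and 1 lower (*C3*), where 31.9% of all genes passed (14.4% higher, 17.5% lower). Their median log2 difference in this step was 1.33, against 0.02 over all tested genes. Late CMDMs against classical monocytes had 5 higher and 1 lower of 9 (35.6% of all genes passed, 18.1% higher and 17.5% lower), with a median of 1.28 against -0.01 over all tested genes. In resident-like macrophages against late CMDMs, 1 was higher (*Cfp*) and 3 were lower (*C3*, *C4b* and *Cfb*), where 28.1% of all genes passed (12.7% higher, 15.5% lower). Resident-like macrophages had 5 higher and 2 lower against classical monocytes (23.7% of all genes passed, 10.8% higher and 12.9% lower) and 6 higher and 2 lower against early CMDMs (46.6% of all genes passed, 21.4% higher and 25.1% lower). These comparisons share libraries, and the genes were chosen with earlier results of these data known, so the counts describe the list.

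**Figure D3:**
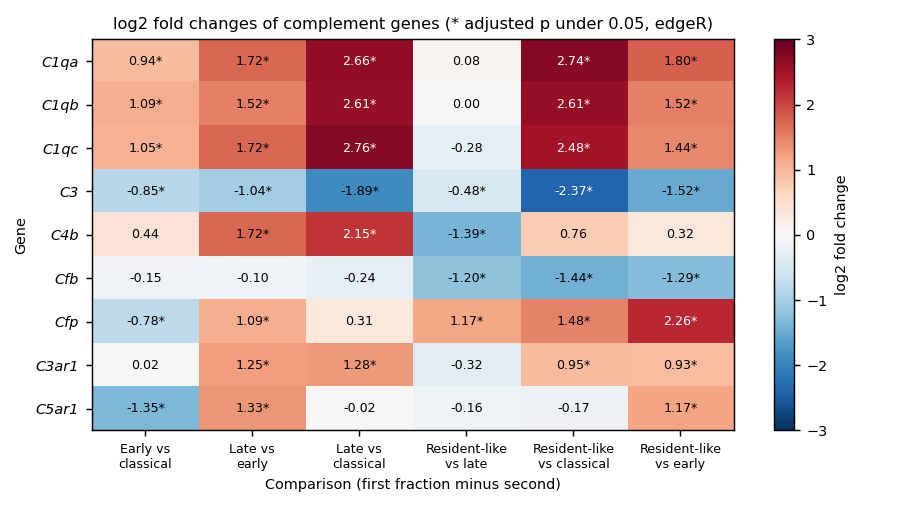
log2 fold changes of the 9 complement genes in 6 comparisons between fractions (color scale from -3 to 3, first fraction minus second, asterisks for an edgeR adjusted p under 0.05). The column of late against early CMDMs is positive for 7 genes with an asterisk and negative with one for *C3*, and the *C1q* genes have no asterisk between resident-like macrophages and late CMDMs.

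All of these values are relative to the total RNA of a library, and the level of leukocyte genes within that RNA differed between fractions. The geometric mean of 10 leukocyte genes, among them *Ptprc* (CD45), was 335 ± 12.4 CPM (SD, n = 3) in classical monocytes, 97.4 ± 21.4 in early CMDMs, 171 ± 9.45 in late CMDMs and 288 ± 5.35 in the resident-like fraction. These genes did not differ by a common factor. In resident-like macrophages *Ptprc* averaged 426 CPM, against 199 in late CMDMs, whereas *Laptm5* averaged 1146 against 935. Whether the share of leukocyte RNA or the genes themselves changed was not tested. Scaling the libraries to these genes moved the median of all tested genes by 1.81 on the log2 scale in early CMDMs against classical monocytes, by -0.85 in late against early CMDMs, by 0.97 in late CMDMs against classical monocytes and by -0.75 in resident-like macrophages against late CMDMs. With that scaling the C1q genes were still higher in early CMDMs than in classical monocytes, by 2.72 to 2.87 on the log2 scale, and higher in late than in early CMDMs, by 0.72 to 0.92, and each passed the test. In resident-like macrophages against late CMDMs they became lower, by -0.67 for *C1qa*, -0.75 for *C1qb* and -1.03 for *C1qc* (edgeR adjusted p = 0.00129, 0.00048 and 1.01e-05). In resident-like macrophages against early CMDMs their log2 differences were 0.24, -0.03 and -0.11 (edgeR adjusted p = 0.166, 0.87 and 0.505).

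Per read of the leukocyte genes, *C1qa* had 0.484 ± 0.130 reads (SD, n = 3) in classical monocytes, 3.20 ± 0.11 in early CMDMs, 6.03 ± 0.63 in late CMDMs and 3.78 ± 0.10 in the resident-like fraction, so that late CMDMs stood above every other fraction. *C3* had 0.701 ± 0.036, 1.38 ± 0.31, 0.370 ± 0.032 and 0.158 ± 0.013 reads in the same order. Its fall between classical monocytes and early CMDMs thus turned into a rise of 0.97 on the log2 scale, whereas it stayed lower in late CMDMs and resident-like macrophages under this scaling. *C5ar1*, *Cfp* and *Cfb* also turned higher in early CMDMs against classical monocytes, by 0.44, 1.02 and 1.64. Between late and early CMDMs *C4b* and *Cfp* no longer passed, at 0.85 and 0.28 on the log2 scale (edgeR adjusted p = 0.114 and 0.182). *C3ar1* was lower in resident-like macrophages than in early CMDMs by -0.63 with this scaling and higher by 0.93 with TMM. *Cfp* stayed highest in resident-like macrophages, at 1.37 to 1.52 reads per leukocyte-gene read against 1.07 to 1.15 in late CMDMs. With this scaling 93.9% of all tested genes passed between early CMDMs and classical monocytes, nearly all of them higher (97.9%), so that passing the test there does not set the complement genes apart.

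**Figure D4:**
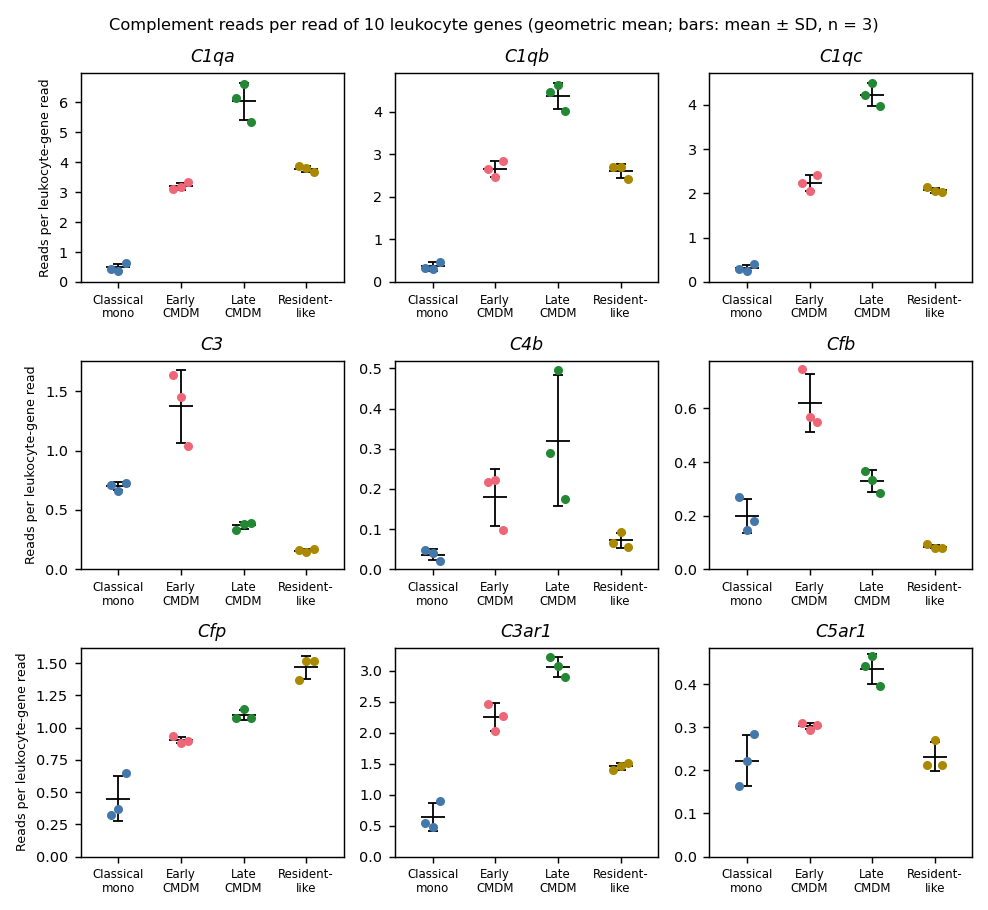
Reads of each complement gene per read of 10 leukocyte genes (geometric mean of the latter, linear axis from 0), with 1 point per library and bars for the mean ± SD of 3 libraries. On this scale the *C1q* genes, *C3ar1* and *C5ar1* peak in late CMDMs, *C3* and *Cfb* peak in early CMDMs and *Cfp* is highest in resident-like macrophages.

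The rest of the pathway was read from a list of 53 other complement genes, of which 48 were in the table and 44 were tested. Against the shares of all genes given above, 9 were higher and 10 lower in early CMDMs than in classical monocytes, and 13 were higher and 14 lower in late than in early CMDMs. Late CMDMs had 9 higher and 16 lower against classical monocytes, and resident-like macrophages 8 higher and 11 lower against late CMDMs, 5 higher and 12 lower against classical monocytes, and 14 higher and 17 lower against early CMDMs. The median log2 difference of the 44 was -0.16, 0.02, -0.54 and -0.27 in the first 4 of these comparisons. Apart from *Hc*, values are given for genes of this list with at least 10 CPM on average in some fraction that passed in at least 1 comparison.

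Several proteases and components of classical initiation fell from early to late CMDMs, where C1q rose. *C1s1*, which encodes C1s, was at 39.4 ± 14.0 CPM (SD, n = 3) in classical monocytes, 29.6 ± 8.56 in early CMDMs, 4.62 ± 0.67 in late CMDMs and 3.69 ± 1.55 in the resident-like fraction. *C1ra*, which encodes C1r, was at 29.8 ± 9.74, 24.8 ± 4.23, 14.0 ± 2.18 and 6.74 ± 1.51 CPM in the same order. Over all tested genes, 17.5% were lower and 14.4% higher in late than in early CMDMs. Of the 11 tested genes of classical and lectin initiation, 7 were lower and 3 higher. *C2*, which encodes the protease of the classical C3 convertase, was among those that fell, from 13.9 ± 4.82 to 8.13 ± 1.10 CPM, a call lost without early CMDM replicate 1 or 2 or late CMDM replicate 1 or 3. *C1ra* shares 56.9% of its 31-base stretches with *C1rb*, and *C1s1* shares 33.5% with *C1s2*, so that reads within these pairs are uncertain. The fibroblast markers were lower in the same step, and fibroblasts are known to make C1r and C1s. The part of fibroblasts in these values was not tested.

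The members of this group that rose were *C4a*, *Fcna* and *Colec12*. *Fcna*, the pattern-recognition molecule ficolin A, was at 6.81 ± 0.71 CPM in classical monocytes, 14.6 ± 3.16 in early CMDMs, 55.0 ± 10.6 in late CMDMs and 33.3 ± 2.11 in the resident-like fraction. It rose by 1.92 ± 0.16 on the log2 scale from early to late CMDMs (edgeR adjusted p = 3.97e-07). Like *C4b*, it was lower in resident-like macrophages than in late CMDMs, with a log2 difference of -0.72 ± 0.15 (edgeR adjusted p = 0.00209). *Colec12*, a scavenger receptor with a collectin domain, was at 85.4 ± 11.8 CPM in early CMDMs, against 215 ± 21.2 CPM in late CMDMs.

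Among alternative and terminal pathway genes, *Cfd*, the factor D that activates factor B, was at 11.1 ± 4.78 CPM in early CMDMs and at 0.646 to 1.94 CPM on average elsewhere. Factor D is abundant in adipocytes, whose markers were not analysed here. *C6*, a component of the membrane attack complex, was at 1.47 ± 0.45 CPM in classical monocytes, 8.75 ± 2.99 in early CMDMs, 21.1 ± 1.71 in late CMDMs and 2.10 ± 0.22 in the resident-like fraction. The log2 difference between resident-like macrophages and late CMDMs was -3.32 ± 0.24 (edgeR adjusted p = 6.94e-08). Of the lymphatic endothelial markers, *Prox1* and *Flt4* were likewise highest in late CMDMs and next in early CMDMs. *Prox1* was at 0.55 to 1.45, 3.22 to 5.31, 12.2 to 16.7 and 1.56 to 2.23 CPM per library in the same order. *Flt4* was at 0.39 to 0.68, 2.46 to 3.67, 7.47 to 13.5 and 0.38 to 0.88 CPM. *Lyve1*, also highest in late CMDMs, averaged 14.0 CPM in early CMDMs and 15.3 in the resident-like fraction. The part of lymphatic endothelial cells in the *C6* values was not tested. *C7*, the next component, ran with the fibroblast markers, from 26.4 ± 11.3 CPM in classical monocytes to 1.90 ± 0.08 CPM in late CMDMs. The part of fibroblasts in the *C7* values was not tested. *Hc*, which encodes C5 and was added after its values were seen, reached at most 0.54 CPM on average in any fraction.

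Of the fluid-phase regulators, *Serping1*, the C1 inhibitor, was at 165 ± 56.2 and 112 ± 29.1 CPM in classical monocytes and early CMDMs. It was at 17.4 ± 0.56 and 11.3 ± 2.79 CPM in late CMDMs and resident-like macrophages, where the fibroblast markers were low as well. The part of fibroblasts in the *Serping1* values was not tested. *Clu*, clusterin, was at 65.1 ± 14.2 CPM in early CMDMs and 9.69 to 15.1 CPM on average elsewhere. Of membrane regulators, *Cd55*, which speeds the decay of C3 convertases, was highest in early CMDMs at 44.7 ± 8.90 CPM and was at 24.1 ± 8.51, 9.06 ± 0.66 and 7.21 ± 1.60 CPM in classical monocytes, late CMDMs and resident-like macrophages. Early CMDMs were also where the keratinocyte markers were highest, and the part of keratinocytes was not tested.

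Of the 10 other receptors tested, 7 were lower and 1 was higher in early CMDMs than in classical monocytes. Over all tested genes, 20.6% were lower and 24.2% higher. The direction of *Itgam*, *Itgax*, *Itgb2*, *Cd93*, *Lrp1* and *Calr* turned with the leukocyte scaling. *Itgam* and *Itgb2*, which form complement receptor 3, were at 74.3 ± 23.1 and 84.9 ± 16.8 CPM in early CMDMs. In late CMDMs they were at 147 ± 5.38 and 134 ± 16.2 CPM, a rise that passed the test with TMM but for neither gene with the leukocyte scaling. Both averaged higher in the other fractions, at 164 ± 32.7 and 281 ± 27.7 CPM in classical monocytes and 188 ± 11.5 and 229 ± 25.5 CPM in resident-like macrophages. *Itgax*, the alpha chain of complement receptor 4, was at 82.3 ± 20.7 CPM in resident-like macrophages, 11.7 ± 0.80 in late CMDMs, 9.28 ± 0.24 in early CMDMs and 29.0 ± 3.47 in classical monocytes. It was 2.81 ± 0.16 higher on the log2 scale in resident-like macrophages than in late CMDMs (edgeR adjusted p = 3.75e-09). The sum of dendritic and Langerhans cell markers was highest in the same libraries, mostly from *Cd207* at 818 CPM and *Epcam* at 218 CPM on average. *Flt3* averaged 26.9 CPM there against 68.8 in classical monocytes, and *Ccr7* 30.6 against 35.2. The part of dendritic and Langerhans cells in the *Itgax* values was not tested. *Cd93*, once described as a C1q receptor, was at 162 ± 14.7 CPM in resident-like macrophages, against 74.1 ± 7.19 CPM in late CMDMs.

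**Figure D5:**
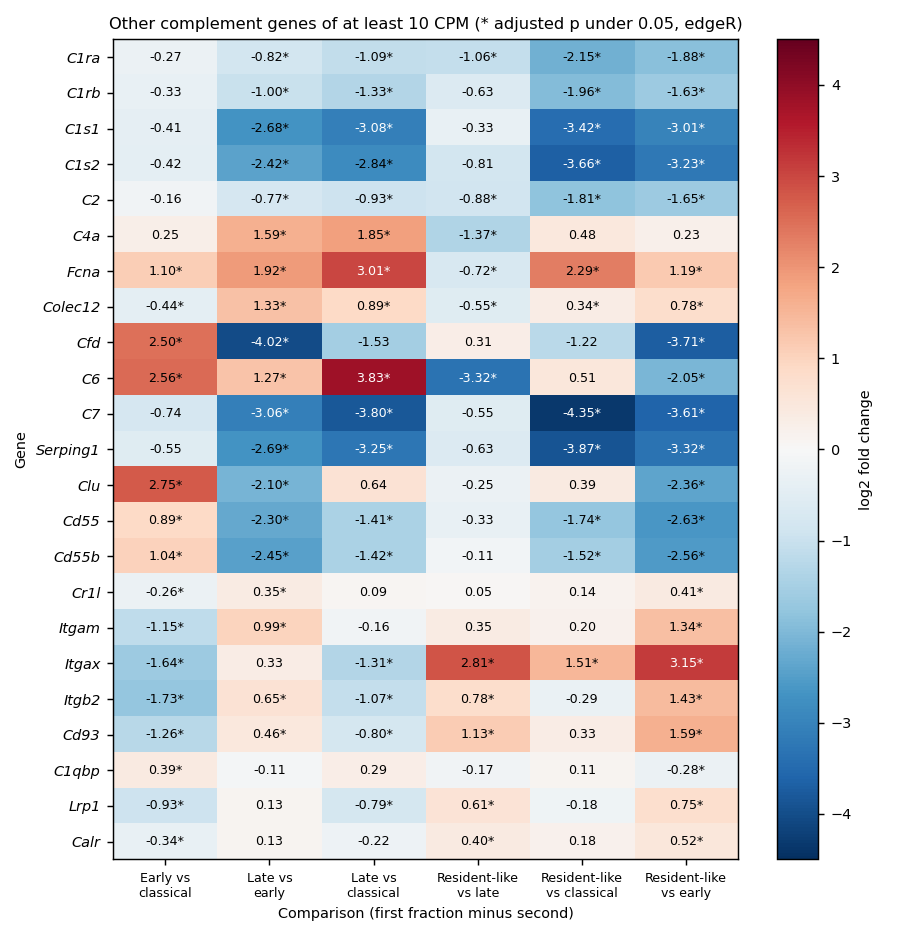
log2 fold changes of other complement genes with at least 10 CPM on average in some fraction (color scale from -4.5 to 4.5, first fraction minus second, asterisks for an edgeR adjusted p under 0.05). In late against early CMDMs, *Fcna*, *Colec12*, *C4a* and *C6* are positive with asterisks beside *C1s1*, *C1s2*, *C7*, *Serping1* and *Clu*, which are negative with asterisks.

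The genes whose levels were most like those of each complement gene were ranked by the Pearson correlation of log2 CPM over the 12 libraries, among 10048 genes. For the mean of the C1q chains these were *Rnf150* (r = 0.994), *Mtss1* (r = 0.992), *Sertad1* (r = 0.988), *Camk1* (r = 0.981) and *Mmp9* (r = 0.979). *Mmp9*, a gelatinase, averaged 4.91 CPM in classical monocytes, 9.26 in early CMDMs, 38.7 in late CMDMs and 47.9 in the resident-like fraction. *C3* was nearest to *Itm2a* (r = 0.975), *Slc44a2* (r = 0.971) and *Ly6c1* (r = 0.970), the last an antigen of the Ly6C family by which the fractions were sorted. *Cfp* was nearest to *Rbpj-ps3*, *Anxa5* and *Rbpj* (r = 0.985, 0.981 and 0.978). *C3ar1* was nearest to *Snx8* (r = 0.983), to *Csf1r*, the receptor of macrophage colony-stimulating factor (r = 0.983), and to *Renbp* (r = 0.982). *C5ar1* was nearest to *Snap23*, *Zeb2* and *Il10rb* (r = 0.979, 0.970 and 0.962). *C4b* had *Gm20634*, *Pros1* and *Mturn* nearest (r = 0.946, 0.943 and 0.940). *Cfb* had *Gm20547*, with which it shares reads, nearest (r = 0.989), followed by *Sned1* and *Palm*. With 4 fractions behind the 12 libraries, many genes share such a course by fraction, so the ranks describe likeness of level and nothing more.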

How the data were processed

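The authors trimmed reads with cutadapt 4.1, mapped them on one strand to mouse reference RNA of GRCm38 with Bowtie2 2.4.5, and summed the reads by gene symbol. The deposited table holds these counts as they are, not normalized. The study used TCC, which was not run here. edgeR 4.0.16 in R 4.3.3 was used instead, with TMM, filterByExpr, robust quasi-likelihood fits of all 12 libraries, no block, and a Benjamini-Hochberg adjusted p under 0.05 over 22118 tested genes. DESeq2 1.42.0 and other settings were alternatives. All columns of the table were used. Levels per kb use the longest protein-coding transcript of GENCODE M21 (GRCm38), or the longest transcript where a gene has none. The fit was tested on simulated data. No pair of replicates was within sampling noise (chi-square per degree of freedom 4.63 to 24.7), and all were kept.

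The genes, the lists, the leukocyte scaling and the rule for named genes were chosen with earlier results of these data known. The 9 genes are named, together with genes of the other complement list that averaged at least 10 CPM in some fraction and passed in at least 1 comparison, the genes nearest to each, the markers and leukocyte genes of the scaling. *Hc* was added after its values were seen. A further gene that qualified is left out of the text and figures.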

Additional observations from a re-analysis of the deposited data

How the results depend on the processing

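The comparisons of the 9 genes gave 39 differences past the test. Apart from the scaling by 10 leukocyte genes, 923 of 936 values of these under other settings kept direction and call, 13 lost the call and 0 changed direction. This total includes other thresholds on the main fit, which cannot change a direction. The threshold of 0.1 cannot lose a call either. With a library left out, 466 of 468 values kept direction and call, but many of these left out a library of neither compared fraction. With the leukocyte scaling all 9 genes passed between resident-like macrophages and late CMDMs (1 higher, 8 lower), where 67.3% of all tested genes passed and 3.63% of those were higher. With it 40 of the other complement genes passed between early CMDMs and classical monocytes, all higher, where 93.9% of all tested genes passed. That scaling reversed *C3* (0.97), *Cfb* (1.64), *Cfp* (1.02) and *C5ar1* (0.44) in early CMDMs against classical monocytes, *Cfb* (0.72) and *C5ar1* (0.96) in late CMDMs against classical monocytes, *C1qa* (-0.67) and *C1qb* (-0.75) in resident-like macrophages against late CMDMs, *C5ar1* (0.055) against classical monocytes, and *C1qb* (-0.028), *C1qc* (-0.11), *C4b* (-1.31), *C3ar1* (-0.63) and *C5ar1* (-0.39) against early CMDMs (log2). The cause was not tested. An adjusted p under 0.01 left 12 other complement genes between resident-like macrophages and late CMDMs. A log2 fold change of at least 1 left 8 there, and 3 of the 9 genes and 12 of the others between early CMDMs and classical monocytes. The shares of all tested genes at these stricter thresholds were not determined, so these counts describe the lists only.

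The remaining reversals were of differences that did not pass. *C1qb* in resident-like macrophages against late CMDMs was -0.0078 with DESeq2 and with RLE size factors, -0.065 with DEGES and -0.13 with library size only, and *C1qa* was -0.054 with library size only. *C5ar1* in late CMDMs against classical monocytes was 0.035 with DEGES. Leaving out single libraries gave 5 to 6 of the 9 genes in early CMDMs against classical monocytes, 8 in late against early CMDMs, 6 to 7 in late CMDMs against classical monocytes, 4 in resident-like macrophages against late CMDMs, 7 against classical monocytes and 8 against early CMDMs. In differences that did not pass, it gave -0.33 to 0.12 for *Cfb* and -0.16 to 0.40 for *C3ar1* in early CMDMs against classical monocytes, -0.27 to 0.0061 for *Cfb* in late against early CMDMs, -0.43 to 0.018 for *Cfb* and -0.20 to 0.24 for *C5ar1* in late CMDMs against classical monocytes, -0.041 to 0.065 for *C1qb* in resident-like macrophages against late CMDMs, and -0.36 to 0.088 for *C5ar1* in resident-like macrophages against classical monocytes. For the other complement genes the ranges of counts were 16 to 20, 23 to 29, 22 to 26, 13 to 21, 14 to 18 and 27 to 31.

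Nothing in the labels ties replicate numbers to shared mice or days, and not every same-numbered pair of libraries deviated together (correlations of -0.099 to 0.25, median 0.059, against a median of -0.031 for other pairs), so the numbers were not taken as pairs. In 27 of 36 cases the best match, chosen among the 3 libraries of another fraction, carried the own number. That is more than unrelated numbers would give on average, and is a hint of pairing from the data and not from the design. The main p-values take no account of such pairing. A replicate block gave 7 of the 9 genes in early CMDMs against classical monocytes, among them *C4b* at 0.46 (edgeR adjusted p = 0.0415), and *C4b* also passed in resident-like macrophages against classical monocytes at 0.79 (edgeR adjusted p = 0.00271). It moved no count by 1.5 times. With it *C5ar1* in late CMDMs against classical monocytes was 0.012.

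Named genes of the other complement list kept their direction in all differences past the test except with the leukocyte scaling, which turned 24. Without a filter on low counts, *Cfp* in early CMDMs against classical monocytes and *C3ar1* in resident-like macrophages against classical monocytes lost the call (edgeR adjusted p = 0.084 and 0.0536). With 3 libraries per fraction, precision was lowest for *C4b*, whose SD in late CMDMs was 24.4 CPM on a mean of 54.0 CPM.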
